A study of Mus musculus with 18 samples.

Results

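RAD21 ChIP-seq was compared between 2 dCas9 block libraries and 2 dCas9 control libraries, 4 of the 18 samples of a series on cohesin in a mouse pro-B cell line. These 4 were chosen by their labels, and replicate 1 of the block was set beside replicate 1 of the control and replicate 2 beside replicate 2. Block cells and control cells were both from a v-Abl transformed pro-B line with the JH segments deleted, deficient in RAG2, with an Emu-Bcl2 transgene, and expressing dCas9. Block cells in addition expressed a guide RNA named Sg1-sgRNA. As background, 6 further RAD21 libraries of the series were read, 3 with the homozygous deletion Ig2b-del/del at Igh and 3 without it (Ig2bwt). Leaving dCas9 aside, they otherwise share the genotype of the control cells and the same drug treatment. Whether these 6 expressed dCas9 was not examined here. All cells were held in 3 uM STI-571, an inhibitor of the Abl kinase, for 4 days before crosslinking in 1% formaldehyde, and each immunoprecipitation used 5 ug of an antibody to RAD21. The line is a transformed line arrested with an inhibitor, and the labels do not say how many clones or separate cultures the replicates came from, so each p below measures only the spread between these libraries, which may be technical. The guide sequence was not given. Sg1 was read here as Sγ1, the switch region in front of the constant gene Cγ1.

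RAD21 is the subunit that closes the cohesin ring. Cohesin is loaded onto chromatin, extrudes DNA into loops and comes to rest where an obstacle, most often CTCF bound in one orientation, stands in its way. At the immunoglobulin heavy chain locus (Igh) such loops bring distant segments together: the 3'CBEs, a group of CTCF sites past the 3' end of the locus, and IGCR1, a CTCF-bound element between the VH and DH segments, are known anchors. dCas9 is a Cas9 without nuclease activity that stays bound where a guide directs it. The study's design text places the experiment in work on loop extrusion and RAG scanning at Igh, and the comparison asks where cohesin lay when dCas9 was directed to Sγ1.

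The gained RAD21 region over Sγ1 lay at chr12:114572792-114575421 of the mm9 build, 4058 to 6687 bp in front of Ighg1 (Cγ1) by its annotated start, in sequence that the annotation places in no gene. This stretch is made of a repeat. When the 2630 bp were laid over themselves shifted by 49 bp, 72.96% of the bases were identical, whereas the median was 25.8% for 38319 regions with a peak in all 4 libraries. Only 2 of those 38319 regions reached the value of Sγ1. So did 2 of 1418 gained regions long enough for this measure, Sγ1 being 1 of them, and 0 of 346 lost regions. The shift of 49 bp was chosen, among shifts up to 400 bp, for the highest identity in Sγ1 itself. The high rank of Sγ1 therefore follows in part from that choice, and repeats of another length can be missed at this shift. On the strand of Igh transcription 39.7% of the bases were G and 20.2% were C, and the 4-base motif AGCT occurred 43 times. A stretch of 300 bp from the middle of the peak is shown because it holds the repeat on which the new peak sits (chr12:114574226-114574525, minus strand, from the mm9 genome). Capitals mark 5 exact copies of the most frequent 20 bases that are followed by NGG, the bases a Cas9 requires next to its target, together with those 3 bases.
Sγ1 repeat: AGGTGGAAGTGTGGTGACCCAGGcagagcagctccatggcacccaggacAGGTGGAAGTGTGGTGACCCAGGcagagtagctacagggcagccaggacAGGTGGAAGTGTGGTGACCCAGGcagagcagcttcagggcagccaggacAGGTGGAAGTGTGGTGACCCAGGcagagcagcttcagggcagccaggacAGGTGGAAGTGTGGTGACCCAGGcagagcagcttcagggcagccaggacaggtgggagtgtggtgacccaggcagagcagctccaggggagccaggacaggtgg

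These 20 bases, AGGTGGAAGTGTGGTGACCC, occurred 16 times in the genome, and all 16 copies lay inside the gained region, spread over 1732 bp. The second most frequent, CACCACACTTCCACCTGTCC on the plus strand, had 15 copies in the region and 17 exact copies in the genome. They describe how often a single 20-base sequence recurs in this region, and neither is known to be the guide.

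The gained region held 0 matches of the 11-base CTCF core used here, searched on both strands. That core had 31746 matches in the genome and lay in 0.481% of tiles of 400 bp, in 22.3% of the regions with a peak in all 4 libraries and in 4.75% of the gained regions. The last 2 sets differ in width, with medians of 525 and 203 bp. At IGCR1 the 2 regions with a peak in all 4 libraries held no match either, so a missing match cannot decide whether CTCF binds. For comparison, the 3 matches in the 3'CBEs are given with 15 bases on each side, each on the plus strand and each inside a region with a peak in all 4 libraries. Capitals mark the core. They lie at chr12:114454314-114454354, chr12:114458249-114458289 and chr12:114459604-114459644.
CTCF core 1: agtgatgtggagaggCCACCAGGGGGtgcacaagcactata
CTCF core 2: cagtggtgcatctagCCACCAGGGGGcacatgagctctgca
CTCF core 3: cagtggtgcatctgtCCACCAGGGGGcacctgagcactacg

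The peak lists held 82688 and 79842 peaks in block replicates 1 and 2 and 58837 and 82566 in control replicates 1 and 2, on the autosomes and X. The value compared throughout is covered bp, the length of sequence under called peaks. Peaks covered 23.7 and 31.5 Mb in the block libraries and 15.9 and 34.4 Mb in the control libraries, so the block list covered 1.49 times as much as the control list within replicate number 1 and 0.916 times as much within number 2. Read numbers were not known. The weakest peaks kept had a −log10 q of 1.01 and 1.41 in the block lists and 1.42 and 1.56 in the control lists. Peak names followed one style in both replicate 1 lists and another in both replicate 2 lists, and the covered bp of 10 kb windows correlated at 0.838 and 0.859 within the numbers, at 0.357 between the block libraries and at 0.224 between the controls (16780 windows). Differences are therefore given within each number.

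The new RAD21 peak over Sγ1 was broad, and its fold was not among the highest of its lists. Its width was 2630 bp in block replicate 1 and 2478 bp in block replicate 2. The region was picked in front of Ighg1 for a peak in both block and no control library, so its absence from the controls follows from that choice. In the whole 10 kb upstream of Ighg1, however, both controls had 0 covered bp. The 3 Ig2b-deleted and 3 Ig2bwt RAD21 libraries had no peak in the region either. In block replicate 1 only 105 of the 82688 peaks were wider, 1 of them on chromosome 12. In block replicate 2 there were 335 wider peaks, 16 of them on chromosome 12. The fold of a peak is the authors' own value, the enrichment computed by the peak caller, and was used only within a list. It was 5.42 in block replicate 1 and 6.12 in block replicate 2, higher than 74.8% and 70.3% of the peaks of those lists. This rank was taken over peaks of all widths, so it does not compare Sγ1 with peaks as wide. The peak thus stood near the top of its lists by width and below their top by fold. Because it sits on a repeat, reads within it may not be placed with certainty. What this does to its width, bounds and fold was not tested.

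A second, small gained peak lay on the VH side of the first, after a gap of 1242 bp, at chr12:114576664-114576933. In block replicates 1 and 2 it covered 240 and 230 bp, with folds of 3.08 and 4.36, and in both controls 0 bp. The repeat was weaker there: 51.1% of the bases were identical at a shift of 49 bp, and the most frequent 20 bases had 0 copies. With only peaks of −log10 q of at least 3 this small peak remained in block replicate 2 alone, while the wide peak kept its full length in both block libraries.

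Together the pair of gained peaks gave the 10 kb window around Sγ1 2870 and 2708 covered bp in the block libraries, against 0 and 0 in the controls. The window was chosen for a region absent from both controls. It passed the filter of a mean of 500 covered bp only through the block libraries. With both controls at 0 bp, the controls added no spread. Its p below therefore belongs to a window selected on these same values and is not separate support. Of 16780 windows tested with limma (two-sided, Benjamini-Hochberg adjustment), 0 were called at an adjusted p of 0.05 (0%), while 3 fell under 0.05 before adjustment. First by p was the Sγ1 window, higher in both block libraries by 2.72 on the log2 scale (SE 0.32; limma adjusted p 1), where the size depends on the added 500 bp. With the replicate number as a block it was the only window called (0.00596% of windows; limma adjusted p 2.45e-06, SE 0.27), and the adjusted p of the next window was 0.247. Its adjusted p in that fit rests on 1 residual degree of freedom and 25.8 borrowed from the other windows; over all alternatives it ranged from 2.45e-06 to 1.

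None of the other constant genes examined, Cε, Cγ2c, Cγ2b, Cγ3 and Cμ, had a peak gained with the block in front of it. Cα and Cδ were not measured in this way. In front of Cγ2c only control replicate 2 had covered bp, 153. In the 10 kb upstream of the starts of Cε and Cγ3 every one of the 4 libraries had 0 covered bp. In front of Cγ2b, at the Iγ2b region, the block libraries had 227 and 305 bp and the controls 143 and 3792 bp. In front of Cμ, where Sμ and the enhancer Eμ lie, there were 670 and 2465 bp in block replicates 1 and 2 and 426 and 4118 bp in control replicates 1 and 2. Apart from Sγ1 itself, no RAD21 peak lay between 5 and 50 kb from its centre toward the VH segments, or between 5 and 10 kb toward the 3' end, in any of the 4 libraries. The new peak thus stood alone in a stretch without RAD21 peaks.

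**Figure D1:**
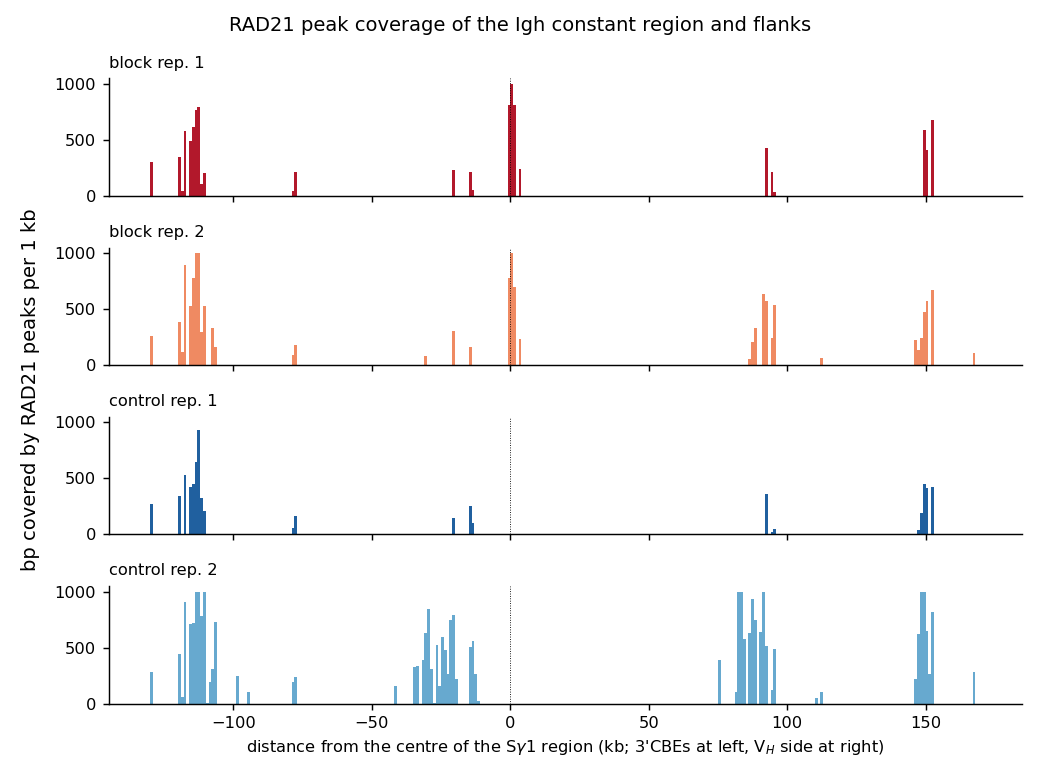
Base pairs covered by RAD21 peaks per 1 kb (vertical axis) against distance in kb from the centre of the Sγ1 region (horizontal axis), one panel for each block and control library. The peaks at 0 kb are those of both block libraries, absent from the controls, and the dense peaks near −25 kb and 85 kb belong mainly to control replicate 2.

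No other RAD21 region of Igh outside the VH segments was gained with the block. Of all 43 regions there, 13 had a peak in all 4 libraries, the 2 at Sγ1 were in both block libraries only, 0 were in both controls only, and 21 were in control replicate 2 alone. Across the genome 1.15% of 127860 regions were in both block and no control library and 0.278% in both control and no block library. The known anchors kept their peaks. The 3'CBEs had 3955 and 5535 covered bp in the block libraries and 3857 and 6752 bp in the controls, and 5 of the 6 regions there were present in all 4. IGCR1 had 1672 and 2425 bp in the block libraries, against 1517 and 4851 bp in the controls. At Eμ and the deleted JH segments the values were 670 and 1991 bp in the block libraries and 426 and 2765 bp in the controls; the deletion and the Emu-driven transgene bear on reads there, and their part in these values was not tested. In each of these 3 elements the groups overlapped, with the block higher within replicate number 1 and lower within number 2. The genome as a whole had the same directions, with ratios of block to control of 1.49 and 0.916. From 100 to 200 kb toward the 3' end, where the 3'CBEs lie, the ratios were 1.24 and 0.759. From 100 to 200 kb toward the VH segments, where IGCR1 lies, they were 1.10 and 0.497. From 50 to 100 kb on that side, where Cμ and Eμ lie, they were 1.57 and 0.317.

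Outside the VH segments, 1 of these 43 regions was lower in both block libraries without overlap. It lay at chr12:114559099-114560167, on the 3' side of Sγ1, between Ighg1 and Iγ2b, and held 271 and 164 bp in the block libraries and 354 and 1069 bp in the controls. Genome-wide 2.15% of regions were lower and 6.32% higher without overlap. The region between Ighg1 and Iγ2b held 336, 277 and 413 bp in the Ig2bwt libraries. In the Ig2b-deleted libraries it held 655, 607 and 495 bp. Both block libraries were thus lower there than every other RAD21 library read here, though narrowly, with 271 bp in block replicate 1 against 277 bp in an Ig2bwt library. With only peaks of −log10 q of at least 3 the region held 0 and 164 bp in the block libraries. The controls then held 0 and 1069 bp, so the groups overlapped. The cause was not tested. The high value of this region in control replicate 2 belongs to a wider pattern of that library among the 4 compared. In the 150 kb from Cγ2b to Cμ, the Sγ1 window left out, block replicates 1 and 2 had 1168 and 3132 covered bp, and control replicates 1 and 2 had 923 and 16298 bp. At Cγ2b and Iγ2b this came to 227 and 384 bp in the block libraries and 143 and 6791 bp in the controls. At Cμ and Sμ it was 0 and 593 bp in the block libraries against 0 and 5003 bp in the controls. Set against the controls, the lower values in the block libraries at Cγ2b and Cμ thus rest on a single control library. Without control replicate 2, neither segment was lower in both block libraries. Over the same 150 kb the Ig2bwt libraries had 3437, 3654 and 2187 bp and the Ig2b-deleted libraries 4703, 10051 and 3541 bp. The longest Cμ region had 0 bp in both block libraries and control replicate 1. It had 568, 1031 and 295 bp in the Ig2bwt and 1272, 2219 and 1429 bp in the Ig2b-deleted libraries. The other Cμ regions were mostly empty in the Ig2bwt libraries.

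**Figure D2:**
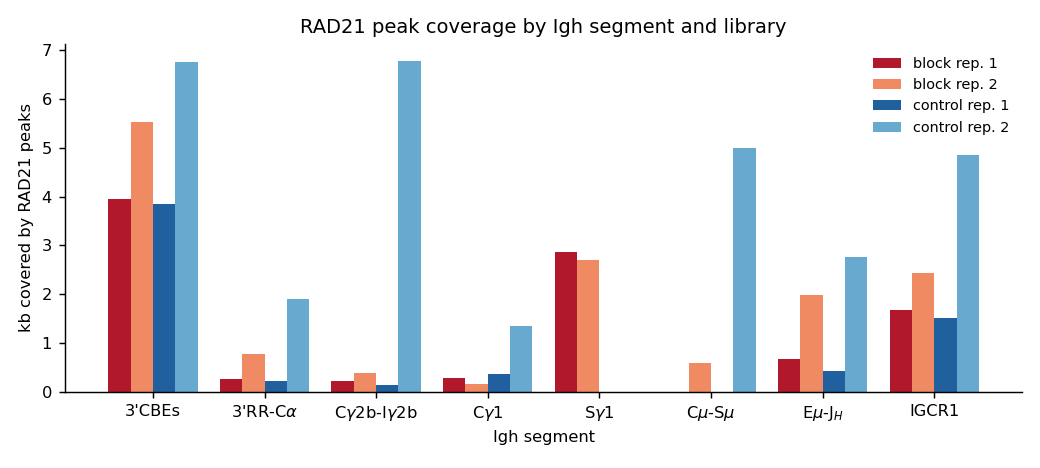
Kilobases covered by RAD21 peaks (vertical axis) in 8 segments of Igh (horizontal axis), with a bar for each library, block bars left of control bars. Sγ1 has bars for both block libraries and none for the controls, while control replicate 2 has the tallest bar in the other segments.

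Along the rest of chromosome 12 the numbered pairs differed. In bins of 1 Mb centred on Sγ1, the log2 ratio of block to control was taken less that of the genome. In the 88 bins on the centromere side it ranged from −1.03 to 0.73 within number 1, with a median of 0.04, and from −0.93 to 1.13 within number 2, with a median of −0.06. From the bin with Sγ1 to the end of the chromosome there were 7 bins, which hold the VH segments and the sequence past them. Within number 2 they had values of −0.74, −1.39, −1.74, −1.27, −1.16, −0.93 and −1.76. Within number 1 the same bins had −0.24, −0.10, −0.37, 0.03, −0.16, 0.02 and −0.65. The low stretch thus ran to the last bin and was deeper in the second pair than in the first. Covered bp cannot tell less RAD21 on this DNA from less of this DNA in the cells, since the input reads were not analysed here. This holds for each value of the VH segments and of the sequence past them given below.

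Block replicate 2 was the lowest of the 4 libraries over this stretch as a whole. The share of a list's covered bp that lay 1 Mb or more past Sγ1 was set relative to the median of the 6 Ig2b-deleted and Ig2bwt libraries. It was 0.668 and 0.224 in block replicates 1 and 2 and 0.810 and 0.651 in control replicates 1 and 2, against 0.926 to 1.06 among the 6. Over the stretch from 10 to 1 Mb before Sγ1 the values were 1.26 and 1.12 in the block libraries and 1.25 and 1.21 in the controls. Bin by bin the 4 libraries differed. At 2 Mb past Sγ1 the relative share was 0.625 and 0.152 in the block libraries and 0.811 and 0.511 in the controls. In the last bin, at 6 Mb, it was 0.329 and 0.302 in the block libraries and 0.516 and 1.02 in the controls, so that block replicate 1 was nearly as low there as block replicate 2 and control replicate 2 stood apart. Between 200 and 500 kb from Sγ1 the block list covered 0.371 times as much as the control list toward the VH segments within number 2 and 0.698 times as much toward the 3' end. Within number 1 these ratios were 0.887 and 1.32, where that of the genome was 1.49. Chromosome 12 as a whole had a ratio of 0.786 within number 2, lower than any other autosome or X (0.880 to 0.970), and of 1.48 within number 1.

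**Figure D3:**
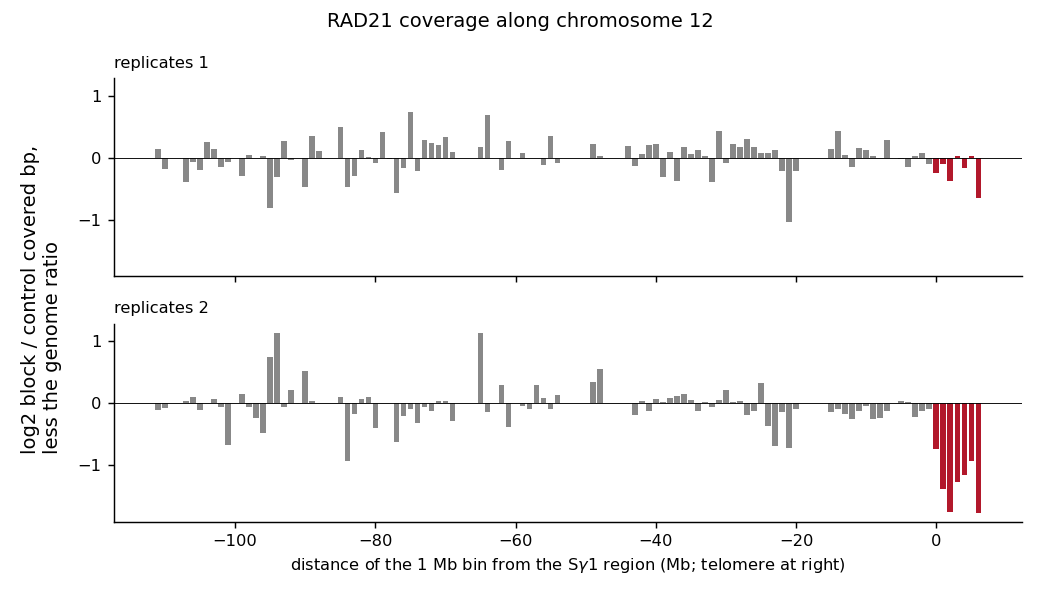
Log2 ratio of block to control covered bp, less the log2 ratio of the whole genome (vertical axis), in 1 Mb bins of chromosome 12 by distance from Sγ1 in Mb (horizontal axis), for replicates 1 (upper) and replicates 2 (lower). Red bins run from the Sγ1 bin to the end of the chromosome, and all 7 lie at −0.74 or below in replicates 2 and between −0.65 and 0.03 in replicates 1; bins with under 500 covered bp in a library are not drawn.

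The VH segments showed the same imbalance. Of 92 windows tested there, 0 were higher and 27 (29.3%) lower in both block libraries without overlap, beside 8.52% higher and 2.01% lower among all windows. The median log2 difference of the 92 was 0.07 within number 1 and −0.94 within number 2, where all windows had medians of 0.26 and −0.07. The VH window with the largest decrease common to both numbers, at chr12:117060001-117070000, had 2343 and 0 covered bp in the block libraries and 3184 and 2161 bp in the controls. A second VH window, at chr12:116840001-116850000, had 5478 and 878 bp in the block libraries and 6197 and 5539 bp in the controls. In both windows block replicate 2 was far below the other 3 libraries, while block replicate 1 lay between the controls in the first and just under the lower control in the second. Of 355 lost regions 42 (11.8%) lay on chromosome 12, 25 of them in the VH segments, whereas 54 of 1475 gained regions (3.66%) and 4.48% of all regions lay on that chromosome.

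Across the genome the change seen in one pair of libraries said little about the other. The median log2 difference of the 16780 windows was 0.26 within number 1 and −0.07 within number 2, and Pearson's r between the numbers was 0.0188 across windows, which share the libraries of each pair and are not independent replicates. Windows higher in both numbers made up 32.5% and windows lower in both 9.34%. A log2 difference of at least 1 in both numbers occurred in 1 window, that of Sγ1, and a difference of −1 or below in both occurred in 0. The next window by mean log2 difference had 1.45.

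**Figure D4:**
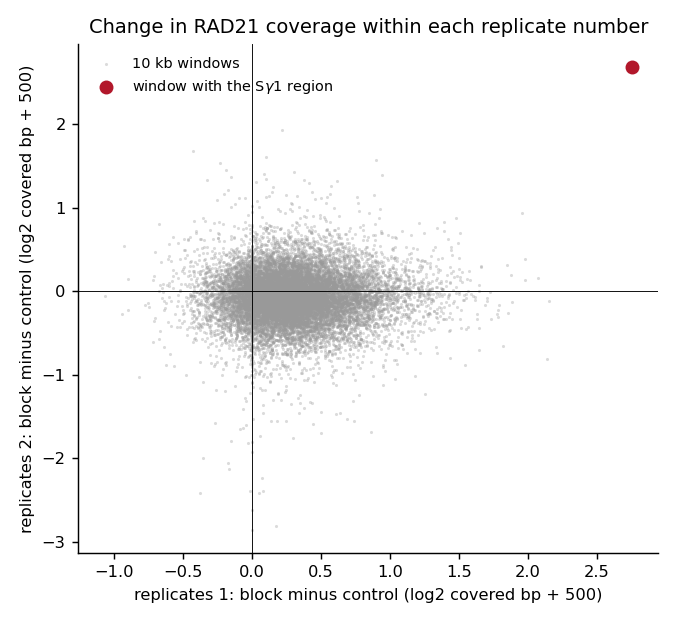
Block minus control difference of log2 covered bp (500 added) within replicates 2 (vertical axis) against that within replicates 1 (horizontal axis) for 16780 windows of 10 kb. The cloud is centred at 0.26 and −0.07, with no slope (r = 0.0188), and the Sγ1 window lies alone at the upper right.

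After Sγ1 the windows with the largest increase common to both numbers lay near Speer4d, Zfp600, Def8 and Prl2c3. The window near Speer4d (chr5:15110001-15120000) had 4691 and 3028 covered bp in the block libraries and 3065 and 1122 bp in the controls. The window near Def8 (chr8:125950001-125960000) had 2851 and 4603 bp in the block libraries, against 1372 and 2754 bp in the controls. Speer4d, Zfp600 and Prl2c3 belong to families with many near-identical copies, among which reads cannot be placed with certainty. The repeat of Sγ1 sets a similar limit within its own peak. Outside the VH segments the windows with the largest common decrease lay near Gm2790, Ly6e and Zfp120. Near Ly6e, which encodes a protein anchored at the cell surface, the window had 1001 and 4980 bp in the block libraries and 1691 and 5727 bp in the controls. The decrease was smaller than the gap between replicates and turned into an increase, of 0.57 on the log2 scale without block replicate 1 and 0.39 without control replicate 2. None of these windows passed the test.

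Presence and absence of peaks gave many differences within a pair and few common to both. Within number 1, 32972 regions had a peak in the block library only, and within number 2 there were 12901. Both held for 1475, which is 4.47% of the first set and 11.4% of the second. Among all regions 25.8% were gained within number 1 and 10.1% within number 2, so both shares lay below those of all regions. Every region has a peak in some list by construction, which by itself lowers such shares. They therefore cannot show that the pairs disagree. In the other direction 10111 and 16468 regions had a peak in the control library only, and 355 were common, 3.51% and 2.16% of the sets. Among all regions 7.91% were lost within number 1 and 12.9% within number 2. The 1475 gained regions were mostly short and weak: their median width was 203 bp, against 525 bp for the 38319 regions present in all 4 libraries, and the median peak in them stood above 25.6% of the peaks of block replicate 1 and 18.4% of those of block replicate 2 by fold. The 355 lost regions were as short, with a median of 194 bp, and their peaks stood above 16.3% and 18.9% of the control lists. Lists cut to the length of the shortest gave 635 gained and 600 lost regions, and −log10 q of at least 3 gave 275 and 303. With fewer libraries required to concur the counts were larger, 11154 gained and 1914 lost without block replicate 1, 23951 and 1531 without block replicate 2, 3167 and 13357 without control replicate 1, and 9366 and 8858 without control replicate 2.

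Sγ1 stood apart from the other gained regions by size. By the smaller of the values in the block libraries, the median gained region had 106 covered bp, 23 regions had at least 300 bp and only Sγ1 reached 500 bp. The next had 489 bp and lay at chr15:39774432-39775158 within Lrp12, a member of the LDL receptor family, 0.745 kb from its start, with 670 and 489 bp in the block libraries and 0 bp in both controls. Another lay 9.21 kb from the start of Gimap6, of a family of GTPases found in lymphocytes, and had 627 and 443 bp in the block libraries and 0 bp in both controls. These 2 regions had folds of 3.23 to 3.59, below the list medians of 3.80 and 4.28. Among lost regions the longest by the same measure lay 44.2 kb from the start of D16Ertd472e, with 0 bp in the block libraries and 380 and 394 bp in the controls. One more lost region lay 0.715 kb from the start of Jag2, a Notch ligand, on chromosome 12 (chr12:114168198-114168643), with 0 bp in the block libraries and 291 and 434 bp in the controls.

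Peak width changed in opposite directions in the numbered pairs. Over the 38319 shared regions the median covered length was 349 and 385 bp in the block libraries and 285 and 411 bp in the controls. The median log2 change was 0.31 within number 1 and −0.09 within number 2, and 30.7% of the regions were wider and 14.0% narrower in both. Regions within 5 kb of a gene start (0.35 and −0.09), 5 to 50 kb away (0.30 and −0.08) and over 50 kb away (0.32 and −0.10) had nearly the same medians. So had regions with a CTCF core (0.30 and −0.10) and without one (0.32 and −0.08). With limma (two-sided, Benjamini-Hochberg adjustment) 0 of the 38319 regions were called at an adjusted p of 0.05 (0%), also with the replicate block, while 239 wider and 61 narrower regions lay under 0.05 before adjustment. Neither the distance classes nor the regions with a CTCF core were thus set apart by their median change.

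The median width of all peaks was 222 and 287 bp in the block lists and 225 and 305 bp in the control lists. The difference of −10.5 bp (−3 bp within number 1 and −18 bp within number 2; exact two-sided permutation p 0.667) was small beside the SDs of 46.0 bp among block and 56.6 bp among control lists, and it became 13 bp with −log10 q of at least 3 and 8 bp with lists of equal length. Leaving out a library gave −50.5 to 29.5 bp, above 0 without block replicate 1 (22 bp) or control replicate 2 (29.5 bp). Peaks of 1200 bp or more made up 0.942% and 3.64% of the block lists and 0.666% and 4.19% of the control lists, again higher within number 1 and lower within number 2 (exact permutation p 1). The smallest p that 2 libraries against 2 allow is 0.33.

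Wide and strong peaks were found again in the other group, and short and weak ones often were not. Of the peaks under 300 bp, 39.3% of block replicate 1 and 69.9% of block replicate 2 overlapped a peak of the same-numbered control list, and 73.3% of control replicate 1 and 61.7% of control replicate 2 overlapped one of the block list. Of the peaks of 1200 bp or more, 99.2% and 99.97% of the block peaks and 100% and 99.9% of the control peaks did. Only 6 such peaks of block replicate 1 and 1 of block replicate 2 had no partner, and the Sγ1 peak was among them in both. Each list was also divided into 4 equal classes by fold. The lowest class was recovered at 18.8% and 53.5% from the block lists and at 66.6% and 45.1% from the control lists, and the highest class at 94.9% and 99.97% from the block lists and at 95.9% and 100% from the control lists. In both block lists the Sγ1 peak lay in the class below the highest, where 69.6% of the peaks of block replicate 1 and 97.5% of those of block replicate 2 had a partner.

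**Figure D5:**
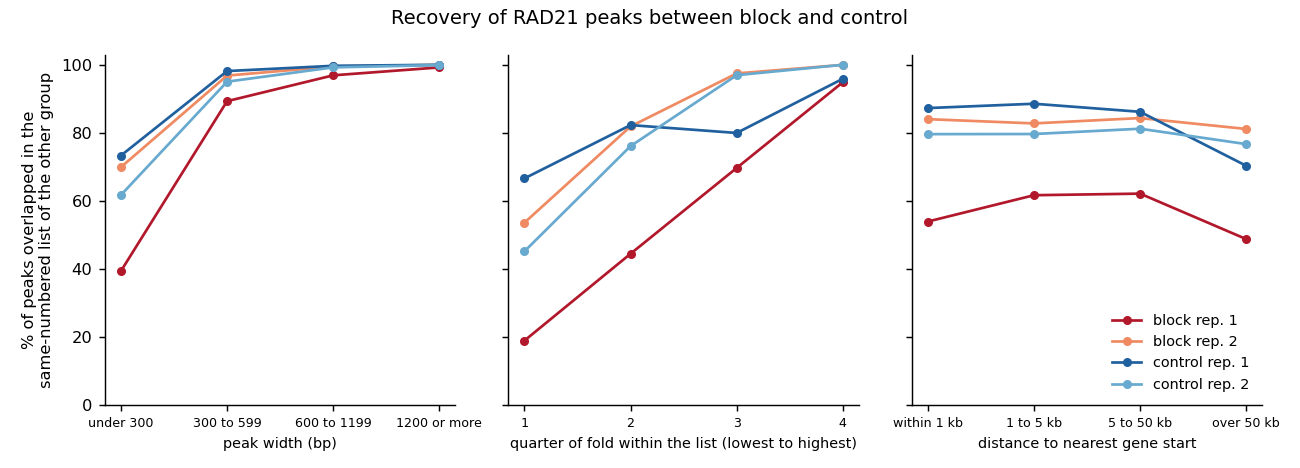
Percentage of the peaks of each list that overlap a peak of the same-numbered list of the other group (vertical axis), by width in bp, by class of fold within the list and by distance to the nearest gene start (horizontal axes), with a line for each block and control library. Recovery climbs to 99.2% or more at 1200 bp in the 4 lists and differs less by distance.

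Distance to gene starts separated the replicate numbers more than the groups. Peaks with their centre within 5 kb of the start of a protein-coding gene made up 18.5% and 25.5% of the block lists and 17.7% and 25.2% of the control lists. The difference of 0.588 points (0.839 within number 1, 0.338 within number 2; exact two-sided permutation p 0.667) was under the SDs of 4.96 points among block and 5.31 among control lists. It became −0.396 points with −log10 q of at least 3 and −0.181 points with lists of equal length, and −2.92 points without block replicate 2 and −3.17 points without control replicate 1. Recovery was lowest for peaks over 50 kb from a start: 48.7% and 81.1% of the block peaks and 70.3% and 76.7% of the control peaks were found again there, against 53.9% and 84.0% of the block peaks and 87.3% and 79.6% of the control peaks within 1 kb. Regions present only in both replicate 2 libraries, 16336 in number, lay within 5 kb of a start in 35.9% of cases, those only in both replicate 1 libraries (4487) in 15.6%, gained regions in 17.8%, lost regions in 15.2%, and all regions in 21.2%.

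Gene starts themselves gave no called change. Of 5544 starts tested by covered bp within 5 kb on either side, limma (two-sided, Benjamini-Hochberg adjustment) called 0 (0%), with 0 under an unadjusted p of 0.05. With the replicate block it also called 0, with 124 higher and 5 lower starts under that unadjusted p. The largest increase common to both numbers was at Fasn, which encodes fatty acid synthase, with 1323 and 2667 covered bp in the block libraries and 142 and 1449 bp in the controls (log2 difference 1.10, SE 0.74, limma adjusted p 1). That difference was 0.30 without control replicate 1, 1.90 without control replicate 2, 0.70 without block replicate 2, 0.58 with −log10 q of at least 3 and 0.47 with lists of equal length. Dusp4, a phosphatase of MAP kinases, had 2526 and 3193 bp in the block libraries and 1535 and 2122 bp in the controls, and its groups did not overlap, as at 4.65% of starts tested. Cdk6, a cell cycle kinase, had 2312 and 5522 bp in the block libraries, against 790 and 4448 bp in the controls. Bcr and Litaf were the other starts with the largest common increase. The log2 difference of Cdk6, Bcr and Litaf turned to a decrease without control replicate 1, so its sign depended on that library.

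The largest common decrease at a start was at Ptprc, which encodes the leukocyte phosphatase CD45. It had 573 and 2165 bp in the block libraries and 1172 and 2617 bp in the controls, and became higher, by 0.04 on the log2 scale, with −log10 q of at least 3. Apeh, a peptide hydrolase, had 658 and 1165 bp in the block libraries, against 1101 and 1889 bp in the controls. 4931408C20Rik and A630091E08Rik followed by the smaller of the decreases within the replicate numbers, and at Mll3, a histone methyltransferase, the values were 340 and 1607 bp in the block libraries and 684 and 2201 bp in the controls. In all 5 the groups overlapped, and 1.03% of starts tested were lower without overlap.

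Genes that mark the cells had peaks where the label places them, in block and control alike. A RAD21 peak lay within 5 kb of the start of 13 of 15 early B lineage genes in both block libraries and of 13 in both controls, beside 41.3% and 34.3% of all 22340 coding genes. Pax5, a transcription factor that commits cells to the B lineage, had 2507 and 5322 covered bp in the block libraries and 1132 and 5771 bp in the controls. Ebf1, another such factor, had 870 and 6687 bp in the block libraries and 417 and 5115 bp in the controls. Foxo1, a factor that drives Rag gene transcription, had 1491 and 5789 bp in the block libraries, against 840 and 6385 bp in the controls. At each of these 3 genes both replicate 2 libraries were higher than both replicate 1 libraries. The median log2 difference of the 15 was 0.10, that of all starts tested 0.11, and 0 of the 15 were called.

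Genes of cohesin, its loader and CTCF had peaks near the start in both block libraries at 10 of 14 and in both controls at 7 of 14, and 0 of the 4 tested were called. Ctcf had 669 and 2859 bp in the block libraries and 652 and 2744 bp in the controls, and Pds5a, which helps release cohesin, had 1073 and 2364 bp in the block libraries and 307 and 2411 bp in the controls. T cell markers had peaks in both block libraries at 2 of 9 and in both controls at 2 of 9, and these were Lck and Gata3. Lck, a kinase of T cell receptor signalling, had 935 and 1765 bp in the block libraries and 255 and 1143 bp in the controls, and Gata3 had 337 and 304 bp in the block libraries and 339 and 309 bp in the controls, while Cd3e, Cd3g, Cd4, Cd8a and Tcf7 had 0 bp in all 4 libraries. Myeloid markers had peaks in both block libraries at 4 of 8 and in both controls at 3 of 8, led by Fcgr3 (1444 and 96 bp in the block libraries, 887 and 332 bp in the controls) and Cebpe (494 and 808 bp in the block libraries, 375 and 675 bp in the controls); Mpo and Lyz2 had 0 bp throughout. Erythroid markers had peaks at 3 of 8 in both block libraries and in both controls. Among them Hba-a1, an alpha globin, had 451 and 516 bp in the block libraries and 254 and 328 bp in the controls. It was higher without overlap, and its mean was too low for it to be tested. Housekeeping genes had peaks at 6 of 10 in both block libraries and 5 of 10 in both controls, led by Actb with 5334 and 4625 bp in the block libraries and 2601 and 5799 bp in the controls and Ywhaz with 2166 and 2661 bp in the block libraries and 517 and 3478 bp in the controls.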

How the data were processed

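RAD21 ChIP-seq peak lists of 2 dCas9 block and 2 dCas9 control libraries were compared, and the 6 RAD21 lists of the Ig2b experiment served as background; the other samples of the series were not used here. The submitters' processing notes name mm9, Bowtie2 2.2.8, SAMtools 1.8 and MACS2; the MACS2 version and settings are not given in the sources used here. The deposited lists are broadPeak tables, 1 per library. Per the peak names, these 4 lists were called with a control library. Each peak's fold is a ratio from the authors' caller, and the deposited −log10 q values are the caller's as well; the −log10 p values and the score column that the authors deposited were not used.

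From these, covered bp (the union of a library's peaks) was computed on the 19 autosomes and X, with starts of 22340 protein-coding genes from GENCODE vM1 on NCBIM37, the assembly of mm9. Windows of 10 kb and gene starts whose mean reached 500 covered bp were tested as log2(covered bp + 500), and regions with a peak in all 4 libraries on log2 covered bp, with limma 3.58.1 in R 4.3.3, without normalization between lists, after a test on simulated data. Regions were peaks merged where they overlapped by at least 1 bp. Single values were compared by exact permutation over libraries. Python 3.11.15 with numpy 2.4.6 and pandas 2.3.3 did the other steps, scipy 1.17.1 the permutations and matplotlib 3.10.9 the plots. Read depth is unknown, so no counting interval was given.

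Groups and replicate numbers came from the labels, and the fit without a replicate block was the main one. Alternatives were the replicate number as a block, −log10 q of at least 3, quantile normalization, lists of equal length (58837 peaks), 100 bp added, no filter, windows of 50 kb, 1 kb around starts, all 10 RAD21 libraries in 1 fit, 50% overlap, and leaving out each library, where a group of 1 library takes its spread from the other group. The block combined with other settings, and covered bp of Igh regions under 2 of them, were added after seeing the data. The text names the Igh regions outside the VH segments, the 5 windows and 5 gene starts per direction with the largest smaller-of-2 change of the same sign in both replicate numbers, called items, listed genes whose groups do not overlap, and 2 to 4 listed genes per list by covered bp in the block libraries. The bounds of the Sγ1 region, the shift of 49 bp, the longest gained and lost regions, the 20-base repeats and the stretch past Sγ1 were picked with their values in view. A few items that these rules select are not reported here. The libraries, lists and rules were chosen with earlier results of these data known.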

Additional observations from a re-analysis of the deposited data

How the results depend on the processing

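The replicate numbers shared a style of peak names, and the deviations of same-numbered libraries from their group means correlated at 0.794; no source says what the numbers mark. With the replicate block 1 window was called instead of 0 (508 higher and 49 lower windows at an unadjusted p under 0.05), as also with the block and quantile normalization (1) or lists of equal length (1) and with all 10 RAD21 libraries (1). Each time this was Sγ1: its log2 difference was 2.72 with the block (limma adjusted p 2.45e-06), 2.33 with the block and quantile normalization (8.35e-06), 2.66 with the block and lists of equal length (0.0279) and 2.72 with all 10 libraries (0.00081), and 2.68 to 2.75 when a library was left out (limma adjusted p 0.766 to 1). With −log10 q of at least 3 the block did not bring it under the threshold (limma adjusted p 0.448), and it was 0.89 with 50 kb windows. The limits of selection given above for this window hold for these p values too. Called gene starts and widths stayed at 0 under every setting run, and called windows at 0 (0 to 0) with each library left out.

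Gained regions numbered 275 with −log10 q of at least 3, 635 with lists of equal length and 3167 to 23951 with a library left out. Lost regions numbered 600 with lists of equal length and 1531 to 13357 with a library left out, since fewer lists then had to concur. The share of peaks within 5 kb of a start differed by −0.396 points with −log10 q of at least 3, −0.181 with lists of equal length and −3.17 to 4.34 with a library left out, and median width by 13 bp, 8 bp and −50.5 to 29.5 bp. Within replicate numbers, the replicate block for these values, both kept their sign. Among named items, the window near Speer4d fell to −0.020 and the start of Ptprc turned to 0.040 on the log2 scale with −log10 q of at least 3, with or without the block. With a library left out, signs turned at Gm2790 (−1.11 to 0.12), Ly6e (−1.30 to 0.57), Cdk6 (−0.27 to 1.67), Bcr (−0.18 to 1.41), Litaf (−0.50 to 2.58), Ptprc (−1.09 to 0.22) and Mll3 (−1.09 to 0.24). The cause was not tested. Covered bp hold no read counts, so changes in height under a peak called in every library could not be seen.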

Other observations

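The list of block replicate 1 reached to weaker peaks than the other lists. A set of 22040 regions, 17.2% of all, had a peak in that library alone, with a median width of 97 bp, and its list reached down to a fold of 2.99 and a −log10 q of 1.01, where the other 3 lists ended at folds of 3.24 to 3.31. Of these regions 48.2% lay over 50 kb from a gene start and 1.92% held a CTCF core.

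The peak names carried the number 1153 in both control lists, 1208 in block replicate 1 and 1206 in block replicate 2. The labels do not say what these numbers stand for.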
